A study of Mus musculus with 26 samples.

Results

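De novo lipogenesis turns glucose into fatty acids, and 10 genes of that route were followed here: Acly, Acss2, Acaca, Acacb, Fasn, Elovl6, Scd1, Scd2, Me1 and Thrsp. They were taken by gene name. Every array probe annotated to one of them was taken, which gave 25 probes of 56605 probes on the array and 10 of 37074 gene names. All 25 were well above background on all 26 arrays, none was saturated, and all passed the filter on dim probes, which left 38832 probes and 25407 gene names to be tested. Where a gene had several probes, the brightest stands for the gene, and the others are described beside it.

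The samples were inguinal subcutaneous white adipose tissue of male C57BL6/J mice from 2 knockout lines. ChREBP, encoded by Mlxipl, is a glucose-responsive transcription factor. It is made in a full-length form, ChREBPα, and a shorter form, ChREBPβ, that starts from its own first exon. The group labelled ChREBPtotal_KO (7 arrays, hereafter total ChREBP KO) lacked both forms and was set against ChREBPtotal_WT (7 arrays). The group labelled ChREBPbeta_KO (5 arrays, ChREBPβ KO) carried a CRISPR/Cas9 deletion of the ChREBPβ-specific exon and was set against ChREBPbeta_WT (7 arrays). Wild types were littermates of their own line. Both deletions are carried by every cell of the animal, so the adipose tissue was not the only tissue without the protein. All mice, knockout and wild type, had fasted for 24 hours and were then refed for 18 hours with food and water containing 20% glucose, so every level below is a refed level.

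In background terms, the route begins when citrate leaves the mitochondrion and ATP-citrate lyase (Acly) splits it into acetyl-CoA. Acetyl-CoA synthetase 2 (Acss2) makes the same product from acetate. Acetyl-CoA carboxylases 1 and 2 (Acaca, Acacb) form malonyl-CoA, which fatty acid synthase (Fasn) joins into palmitate. Elovl6 lengthens palmitate to stearate, and the stearoyl-CoA desaturases Scd1 and Scd2 add a double bond. Malic enzyme 1 (Me1) supplies NADPH, and Thrsp (Spot 14) is a small regulator of the pathway that is abundant in lipogenic tissue. ChREBP and SREBP-1c are the best known activators of these genes in liver and fat after a carbohydrate meal.

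The arrays had median spot intensities of 59 to 107.5 units over a median background of 15 to 23, and correlations between arrays were 0.95 to 1.00. Spot intensities given below as scanned are not adjusted for this difference in brightness. All 12 adipocyte marker genes (Adipoq, Plin1, Fabp4 and others) were well above background on all arrays. So were 15 of 15 lymphocyte, 8 of 8 macrophage and 8 of 8 beige adipocyte genes, so this detection alone does not check the tissue label. Other cell types were present in unequal amounts. The mean log2 level of 15 lymphocyte genes, which an inguinal lymph node would bring, was 10.93 to 12.58 in the total-line WT, 7.86 to 11.25 in total ChREBP KO, 7.21 to 8.85 in ChREBPβ KO and 7.21 to 8.26 in the β-line WT. The mean of 12 skeletal muscle genes was 6.59 to 12.18 in the total-line WT and 6.63 to 13.05 in total ChREBP KO. It averaged 2.60 higher there with wide overlap, and 4 of 12 genes were called higher, near the 25.8% of all genes. In the β line it was 6.53 to 12.74. No muscle gene was called there, where only 0.0512% of all genes were called. In whole tissue, fewer cells of a type and less RNA per cell cannot be told apart. The brightest of 3 Mlxipl probes stood at 13.78 ± 0.14 (SD, n = 7) in total ChREBP KO against 16.07 ± 0.25 (n = 7), and at 14.16 ± 0.19 (n = 5) in ChREBPβ KO against 15.68 ± 0.31 (n = 7). A dimmer Mlxipl probe was also lower with no overlap in both lines, and the remaining one differed by -0.13 and 0.04. Where these probes lie relative to the deleted stretches was not determined, so they check the labels only in part.

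The probes are oligonucleotides of 60 bases, and the sequence and position of a probe decide which part of a transcript is read. The following 6 are shown because each is a dimmer probe that is set beside the brightest probe of its gene below. Coordinates are those of the array annotation on mouse build mm9 (no mm9 gene annotation was used here, so exons are not named), with the strand of the probe after each.
Acly probe A_55_P2082914, chr11:100365518-100365577, minus strand: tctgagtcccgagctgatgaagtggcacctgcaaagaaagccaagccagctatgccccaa
Acaca probe A_55_P2121392, chr11:84009021-84009080, plus strand: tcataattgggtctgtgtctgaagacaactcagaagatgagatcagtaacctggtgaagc
Acacb probe A_66_P110803, chr5:114667674-114667733, plus strand: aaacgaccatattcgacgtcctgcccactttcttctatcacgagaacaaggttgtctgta
Acss2 probe A_55_P1988795, chr2:155387492-155387551, plus strand: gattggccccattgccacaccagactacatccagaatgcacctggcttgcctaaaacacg
Me1 probe A_55_P2016842, chr9:86480571-86480630, minus strand: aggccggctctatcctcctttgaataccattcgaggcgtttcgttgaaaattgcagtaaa
Thrsp probe A_51_P194099, chr7:104565562-104565621, minus strand: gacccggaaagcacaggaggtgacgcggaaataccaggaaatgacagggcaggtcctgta

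Because several of the genes moved together, their start regions were read from RefSeq (build GRCm38.p6), which held 9 windows for 8 of the 10 genes, Scd1 and Scd2 not among them. The 250 bases before the start of 3 genes that differed in size of change are printed, 5′ to 3′ on the strand of the gene, with CCAAT and its reverse complement ATTGG in capitals.
Elovl6, chr3:129532136-129532385, plus strand: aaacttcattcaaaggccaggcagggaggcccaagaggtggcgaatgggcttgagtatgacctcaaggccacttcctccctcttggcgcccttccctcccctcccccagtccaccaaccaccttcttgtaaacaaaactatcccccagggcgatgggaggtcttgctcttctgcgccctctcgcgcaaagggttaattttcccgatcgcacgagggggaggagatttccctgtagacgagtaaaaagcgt
Acly, chr11:100528001-100528250, minus strand: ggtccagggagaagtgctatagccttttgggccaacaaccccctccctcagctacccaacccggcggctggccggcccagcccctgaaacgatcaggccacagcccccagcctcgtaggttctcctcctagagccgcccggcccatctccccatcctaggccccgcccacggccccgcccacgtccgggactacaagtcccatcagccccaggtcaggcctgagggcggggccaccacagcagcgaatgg
Fasn, chr11:120824548-120824797, minus strand: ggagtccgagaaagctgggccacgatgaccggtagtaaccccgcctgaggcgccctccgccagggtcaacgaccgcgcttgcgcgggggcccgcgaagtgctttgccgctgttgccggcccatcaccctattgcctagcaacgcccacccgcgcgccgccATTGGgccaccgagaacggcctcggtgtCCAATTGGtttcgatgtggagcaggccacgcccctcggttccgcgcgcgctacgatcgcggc
CCAAT was sought because NF-Y, which binds it, is a known partner of SREBP-1c at lipogenic promoters. Read on both strands and including the short stretch after the start, it lay in 6 of 9 member windows (of Acly, Acss2, Acacb, Fasn, Me1 and Thrsp), against 37.4% of all 32851 windows. In Fasn one copy on each strand overlap, from position -62, and another starts at -90. In Acly the copy starts at 38, past the printed bases. The E-box CACGTG lay in 0 of 9 member windows and in 7.15% of all windows. None of the windows held a pair of exact copies of this E-box with 5 bases between them, the spacing of the carbohydrate response element (0 of 32851). A pattern found in no window at all cannot set the member windows apart, so nothing is concluded from it. The sterol response letters TCACNCCAC lay in 0 of 9 and in 1.24% of all. No match says only that these letters are not in this window.

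In total ChREBP KO, most of the route was lower, and the loss differed widely from step to step. Of the 10 genes, 7 fell (Elovl6, Acly, Acaca, Thrsp, Acacb, Me1 and Fasn), 1 rose (Scd2) and 2 did not pass the test (Acss2 and Scd1), by limma at an adjusted p of 0.05. Over all genes tested, 20.1% were called lower and 25.8% higher in this comparison. By probe, 19 of 25 fell and 1 rose, against 19.5% lower and 26% higher over all probes. The median log2 fold change was -1.25 over the 10 genes and 0.05 over all genes. In the same 7 genes no total ChREBP KO array reached the level of any wild-type array, a separation seen in 4.86% of all genes. That held for 16 of 25 probes, against 4.51% of all probes.

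At the first step the 2 sources of acetyl-CoA parted at their brightest probes. Spot intensities of Acly, in arbitrary scanner units, ran from 46209 through a median of 55919 to 80855 in total ChREBP KO and from 263324 through 310206 to 349739 in the total-line WT. The groups were far apart, with the highest knockout array well under the lowest wild type. On the normalized log2 scale the means were 15.96 ± 0.20 (SD, n = 7) and 18.25 ± 0.08 (n = 7). Acly thus fell by 2.29 (standard error 0.09, limma adjusted p = 4.13e-15), to 20.4% of wild type with a 95% confidence interval of 17.9% to 23.3%. Acss2, which uses acetate instead, ran from 38352 through 53897 to 76785 units in the knockout and from 49097 through 58172 to 79847 in the wild type. These ranges overlapped almost wholly. The log2 fold change was -0.06, at 96.2% of wild type with an interval of 75.8% to 122% (adjusted p = 0.812). A loss of Acss2 of the size seen for Acly lay outside this interval. Dimmer Acss2 probes at -0.52 and -0.89 were called lower, as described below, and another at -0.08 was not.

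Both carboxylases fell, Acaca the further. Acaca, the cytosolic form that feeds fatty acid synthesis, had intensities of 30616, 40102 and 58527 (lowest, median, highest) in total ChREBP KO against 159067, 171475 and 230583. The arrays did not overlap, and Acaca was at 24.6% of wild type (interval 21% to 28.8%, log2 fold change -2.02, adjusted p = 3.46e-13). Acacb, the mitochondrial outer membrane form known for restraining fatty acid oxidation, had intensities of 16403, 20008 and 26759 against 43082, 59370 and 72297. Its arrays did not overlap either, and it was at 38.1% of wild type (29.7% to 48.7%, log2 fold change -1.39, adjusted p = 5.13e-07).

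Fasn, the enzyme that carries out the whole synthesis of palmitate, showed the smallest of the 7 losses. It was the probe of rank 2 to 15 in brightness, of all tested probes, on every array, so it sits where quantile normalization leaves little room. Intensities as scanned were 302297, 378787 and 425591 in total ChREBP KO and 435433, 480433 and 497005 in the total-line WT, with no overlap. After normalization all 7 wild types and all 5 ChREBPβ KO arrays had the value 18.84, because a probe that holds the same rank on 2 arrays is given the same value. Across the series 17 of 26 arrays shared that value to within 0.01. The normalized log2 fold change was -0.31 (standard error 0.06, adjusted p = 0.000332), or 80.6% of wild type (73.6% to 88.4%). With each array scaled only to its 75th percentile, which keeps the spread at the top, it was -0.37 (adjusted p = 0.002). Whether spots this bright respond less to a change was not tested, and Fasn had no dimmer probe to set beside this one. With the slide as a fixed block it was -0.23 and did not pass (adjusted p = 0.137). None of the Fasn spots was marked as saturated by the scanner software.

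**Figure D1:**
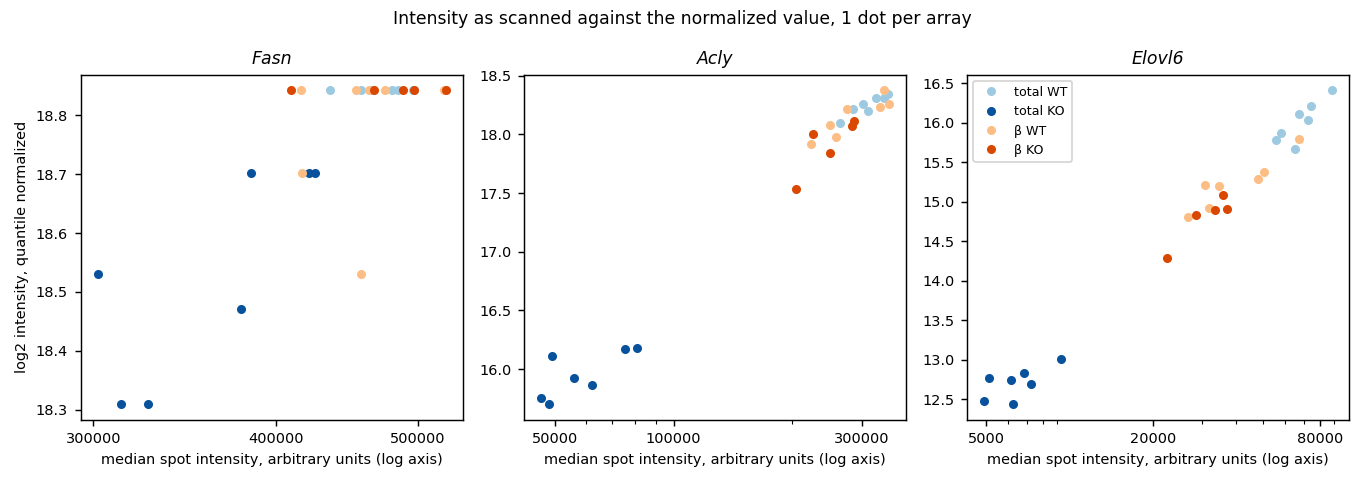
Median spot intensity as scanned (arbitrary units, log axis) against the quantile-normalized log2 intensity for Fasn, Acly and Elovl6, 1 dot per array, coloured by group. For Fasn 17 of 26 arrays lie on 1 horizontal line at 18.84 although their intensities differ, whereas Acly and Elovl6 keep their spread and the 7 total ChREBP KO arrays lie apart at the lower left.

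At the brightest probes, elongation showed the deepest loss of the 10 genes, and neither desaturase was called lower. Dimmer probes of Acly and Acaca fell further than Elovl6, as described below. Elovl6 intensities were 4916, 6214 and 9321 in total ChREBP KO against 55530, 67278 and 88493 in the total-line WT. The brightest knockout array was thus far under the dimmest wild type. Elovl6 fell by 3.30 (standard error 0.14, adjusted p = 7.28e-15), to 10.1% of wild type (8.31% to 12.4%). Scd1, the main desaturase of fat, had 181549, 223716 and 278282 units against 207845, 238987 and 258092. The knockout range enclosed the wild-type range at both ends, and Scd1 stood at 98.6% of wild type (86.5% to 112%, adjusted p = 0.875). Scd2, its neighbour on chromosome 19, had 83588, 104087 and 142731 units against 63885, 85275 and 106008. These ranges overlapped, and Scd2 was at 138% of wild type (117% to 162%, log2 fold change 0.46, adjusted p = 0.00163). The rise of Scd2 rested on the settings: scaled to the 75th percentile it was 0.34 with an adjusted p of 0.0597, with the lymphocyte mean as a covariate 0.17 (adjusted p = 0.444), and relative to the mean of the 12 adipocyte genes it was -0.18.

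Me1 and Thrsp, the supplier of NADPH and the regulator, fell as well. Me1 had 74247, 108908 and 140767 units in total ChREBP KO and 215227, 242239 and 289638 in the total-line WT, and was at 46.3% of wild type (38.9% to 55.2%, adjusted p = 8.5e-08). Thrsp had 64999, 83567 and 125537 units against 205610, 259202 and 275099, and was at 37.3% (33.7% to 41.3%, adjusted p = 8.25e-14). In neither gene did the arrays of the 2 groups overlap.

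**Figure D2:**
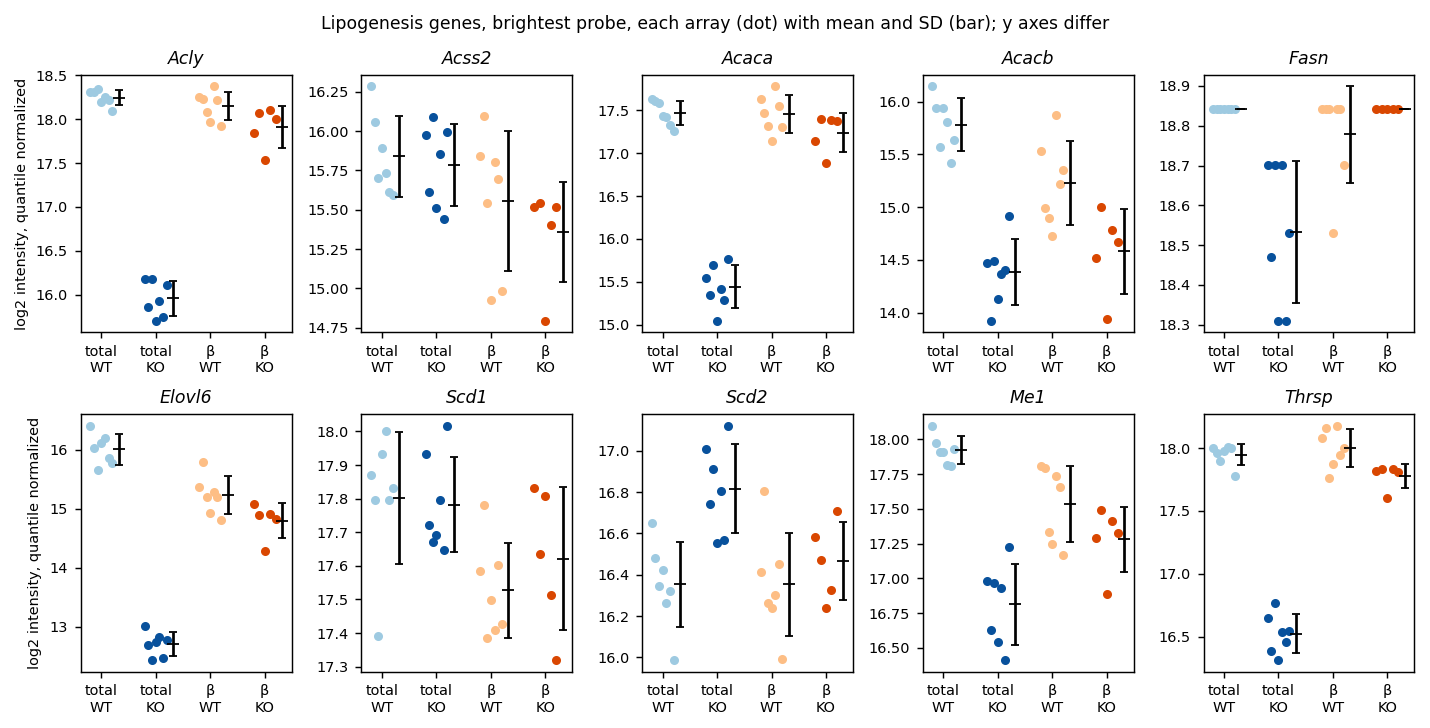
Quantile-normalized log2 intensity of the brightest probe of each of the 10 genes on each array (dots), with the mean and SD of each group (bars); the y axes differ between genes. In 7 genes the total ChREBP KO arrays lie below all total-line WT arrays, in Acss2 and Scd1 they overlap them, and in Scd2 they lie higher with overlap; the 5 ChREBPβ KO arrays overlap their own WT in all 10 genes.

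Relative to the adipocyte genes, which were themselves higher in total ChREBP KO, the 7 losses were larger. The mean of the 12 adipocyte genes was 16.25 ± 0.06 in total ChREBP KO and 15.61 ± 0.16 in the total-line WT. Of the 12 genes, 11 were called higher and none lower, against 25.8% and 20.1% of all genes. Subtracting the adipocyte mean lowers every gene of total ChREBP KO by the same 0.64 against the total-line WT. It thus deepens any loss, and the share of all genes called in this setting was not determined. On that scale Acly was -2.93, Acaca -2.66, Elovl6 -3.94 and Fasn -0.95, and Acss2 (-0.70) and Scd1 (-0.66) were called lower too. Lymphocyte genes were lower in total ChREBP KO (15 of 15 called, against 20.1% of all genes). Of 8 beige adipocyte genes 4 were called lower and 1 higher, and their mean was 11.34 against 12.68 in the total-line WT. With only the 4 total ChREBP KO arrays of lymphocyte score at or above 10, 8 of 10 genes were called, with Elovl6 at -3.42, Acly at -2.37 and Scd2 at 0.34. Without the arrays of skeletal muscle score above 10, which left 2 total ChREBP KO and 5 total-line WT arrays, 7 genes were called and Elovl6 was at -3.41. The share of all genes called in either fit was not determined. Within each of the 4 wash batches named in the labels, all 7 genes were lower, Elovl6 by log2 fold changes of -3.56 to -3.20 and Fasn by -0.42 to -0.14. The batches held few arrays: in batch 1 the total-line WT was replicate 4 alone, and in batch 2 total ChREBP KO was replicate 2 alone. The share of all genes lower in every batch was not determined.

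In ChREBPβ KO, no gene of the route passed the test. By limma 0 of 10 genes and 0 of 25 probes had an adjusted p under 0.05, against 0.0512% of all genes (13 genes) and 0.0386% of all probes. Before adjustment, 12 of 25 probes, from 7 genes, had a p under 0.05, against 7.92% of all probes. In 3 settings 1 of 25 probes was called, namely with arrays weighted by their quality, relative to the adipocyte mean, and without total-line WT replicate 4. The share of all probes called in these settings was not determined. The estimates leaned one way: 21 of 25 probes had a log2 fold change below 0, against 48.6% of all probes, with a median of -0.27 over the 25 and 0.00 over all. Probes of 1 gene and genes of 1 pathway are not independent, so these shares are a description.

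The value with the clearest separation was the dimmer probe of Acly, A_55_P2082914. Its 5 ChREBPβ KO arrays were at 1502.5, 1612, 2053.5, 2165 and 2310.5 units, and its β-line WT arrays ran from 2135 through 2587 to 3505. After normalization the knockout arrays, at 10.28, 10.60, 10.77, 10.86 and 11.01, all lay below the wild types, which began at 11.10. Of the 25 probes it alone separated the groups downwards, a separation seen in 0.27% of all probes. The log2 fold change was -0.67 (standard error 0.15), or 62.9% of wild type (50.8% to 77.9%), with an adjusted p of 0.126. The brighter Acly probe gave -0.24 (84.7%, 73.3% to 97.8%, adjusted p = 0.556).

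Acacb gave the largest estimate among the brightest probes of the ChREBPβ line. Its 5 knockout arrays were at 18066, 24787, 25806, 33799 and 35993 units and the wild types ran from 25026 through 37966 to 73408. The ranges overlapped, and Acacb stood at 63.9% of wild type (48.7% to 83.7%, log2 fold change -0.65, adjusted p = 0.3). Elovl6, the gene with the deepest loss at the brightest probe in the other line, was at 22404, 28645, 33544, 35896 and 36814 units against 26717, 34691 and 67163 (lowest, median, highest). It stood at 74.4% (59.8% to 92.5%, adjusted p = 0.444). Thrsp stood at 85.8% (76.7% to 95.9%), Me1 at 83.9% (69.3% to 102%), Acaca at 86% (72.4% to 102%) and Acss2 at 87.1% (67% to 113%). Fasn (105%, 94.6% to 116%), Scd1 (107%, 92.6% to 123%) and Scd2 (108%, 90.6% to 129%) were estimated above wild type, and Fasn and Scd1 turned to -0.05 and -0.04 on the log2 scale when each array was scaled to its 75th percentile. ChREBPβ KO replicate 6 was the lowest of its group in 8 of the 10 genes, and without it the log2 fold changes were nearer to 0: -0.15 for Acly, -0.060 for Acss2, -0.13 for Acaca, -0.49 for Acacb, -0.30 for Elovl6, -0.16 for Me1 and -0.18 for Thrsp. Over all fits without 1 array, Acly ran from -0.29, Acss2 from -0.30, Acaca from -0.27, Acacb from -0.75, Elovl6 from -0.50, Me1 from -0.32 and Thrsp from -0.26 up to these values. In each of the 7 genes that fell in total ChREBP KO, the lower end of the ChREBPβ KO interval lay above the share of wild type that was left there.

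The difference between the knockouts was tested as the ChREBPβ KO effect minus the total ChREBP KO effect. It was called above 0 in 7 of 10 genes, against 10.1% of all genes. A value above 0 here means a smaller loss in ChREBPβ KO, or for Fasn no estimated loss there. By probe the difference was called above 0 in 16 of 25, against 9.91% of all probes. It was 2.87 for Elovl6 (95% interval 2.45 to 3.30, adjusted p = 9.71e-10), 2.05 for Acly (1.77 to 2.33, 3.86e-10), 1.80 for Acaca (1.47 to 2.14, 2.79e-08) and 1.20 for Thrsp (0.98 to 1.42, 1.79e-08). It was smaller for Me1 (0.86, 0.48 to 1.23, adjusted p = 0.00157), Acacb (0.75, 0.22 to 1.28, 0.0373) and Fasn (0.37, 0.18 to 0.57, 0.00632). Acss2 (-0.15), Scd1 (0.12) and Scd2 (-0.35, adjusted p = 0.138) did not pass, but relative to the adipocyte mean Scd1 was at 0.66 and passed (adjusted p = 0.000788). The call of Acacb was lost in 13 of 26 fits that each left out 1 array, and those of Acacb and Fasn with each array scaled to its 75th percentile (adjusted p = 0.0591 and 0.1).

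The 2 wild-type groups differed from each other, although neither carried a deletion. In the β-line WT, 4 genes were lower than in the total-line WT, against 19.6% of all genes: Elovl6 at 58.2% (47.7% to 71%, adjusted p = 5.91e-05), Acacb at 68.2% (adjusted p = 0.0111), Me1 at 76.4% (0.0116) and Scd1 at 82.6% (0.0159). By probe, 16 of 25 were lower and 1 was higher, against 19.8% and 25.7% of all probes. The 6 other genes had log2 differences of -0.28 (Acss2) to 0.05 (Thrsp) and did not pass. The lymphocyte mean was 7.60 in the β-line WT and 11.99 in the total-line WT, and the adipocyte mean 16.07 and 15.61. The mean of 8 beige adipocyte genes was 10.58 and 12.68, in the same order. That of 12 skeletal muscle genes was 9.62 and 8.04, and that of 8 macrophage genes 12.43 and 11.77. Their part in the differences was not tested. With the lymphocyte mean as a covariate 2 of the 10 genes were called, and with the slide as a block 1. Relative to the adipocyte mean all 10 were called, but that setting lowers every gene of the β-line WT by the same 0.46. The share of all genes called in these fits was not determined. Since the wild types differed, each knockout was set only against its own line.

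Probes of 1 gene did not report 1 value, and the brightest probe usually showed less change than a dimmer one. For Acly the bright probe, at the 3′ side of the gene, gave -2.29 and the probe printed above, 27784 bases away in mm9, gave -3.69, that is 20.4% and 7.73% of wild type. The ratio of the bright to the dim probe on each array rose by 1.40 log2 units in total ChREBP KO, the smallest p its 3432 arrangements allow (exact permutation test, two-sided, p = 0.000583, adjusted p = 0.00152 over 26 ratios tested). It rose by 0.43 in ChREBPβ KO as well (exact permutation p = 0.00126 of 792 arrangements, adjusted p = 0.00298). In this gene, the 2 probes thus changed unequally in both knockouts.

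Acaca had 7 probes along the gene. Near its 5′ side, 3 probes that end or lie between bases 84008941 and 84009080 of chromosome 11, among them the one printed above, gave -3.43, -3.08 and -3.26. Toward the 3′ side, 3 probes gave -2.45, -2.68 and, for the brightest, -2.02. The one left, A_55_P2898142, lies 42099 bases upstream of the next one, was the dimmest of the 25 (48 and 47 units in total ChREBP KO and WT), and gave 0.16 (adjusted p = 0.235). It was also the probe that was higher in the β-line WT than in the total-line WT, by 0.66. The ratio of the 2 brightest Acaca probes rose by 0.66 in total ChREBP KO (exact permutation, adjusted p = 0.00152) and by 0.08 in ChREBPβ KO (adjusted p = 0.377, -0.02 with 75th percentile scaling).

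Acacb behaved the other way, with its bright 3′ probe at -1.39 and the dimmer ones at -0.54 (printed above, 69% of wild type) and at 50.1% of wild type. The ratio of its 2 brightest probes fell by 0.86 (exact permutation, adjusted p = 0.00152). In Acss2, where the brightest probe gave -0.06, the second brightest, printed above, gave -0.52 (69.9%, adjusted p = 0.0183) and another, A_55_P2716851, gave -0.89 (54.1%, adjusted p = 0.00181). The latter lies 36483 bases upstream of the second and is annotated to another transcript. A dimmer probe of that transcript gave -0.08. With the median over all probes in place of the brightest, Acss2 was called lower (-0.70). The 2 probes of Me1 (-1.11 and -1.21) gave like values, and those of Thrsp differed by little (-1.42 and -1.74), with a ratio that rose by 0.31 (adjusted p = 0.00152). The second probe of Scd1 lies 1693 bases from the first in the opposite orientation, and its target strand was not checked. It gave -0.20 (adjusted p = 0.514).

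**Figure D3:**
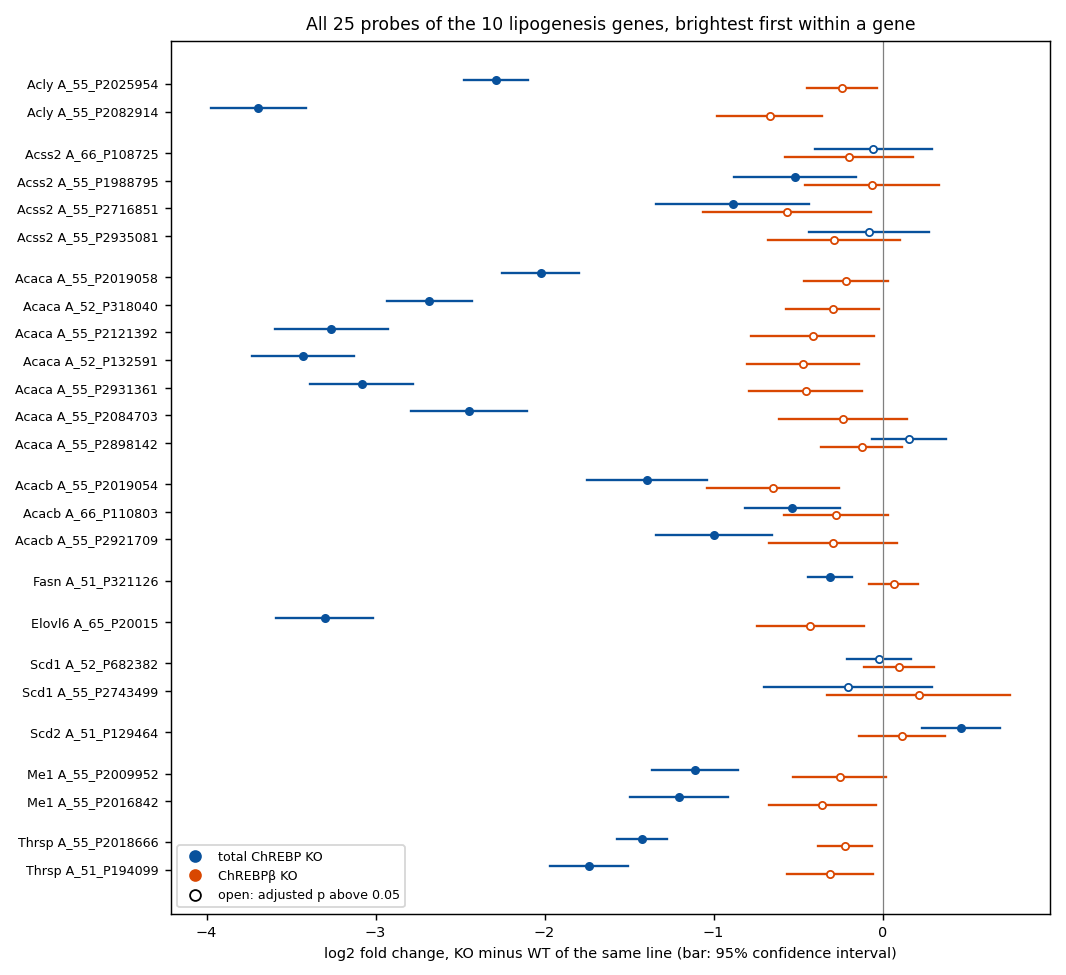
Log2 fold change, knockout minus WT of the same line, for all 25 probes (dots, with 95% confidence intervals as bars), total ChREBP KO in blue and ChREBPβ KO in orange; open dots have an adjusted p above 0.05. Total ChREBP KO values reach -3.69 at the dimmer Acly probe and lie near 0 for Scd1, the brightest Acss2 probe and 1 Acaca probe, while all ChREBPβ KO dots are open and lie between -0.67 and 0.21.

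**Figure D4:**
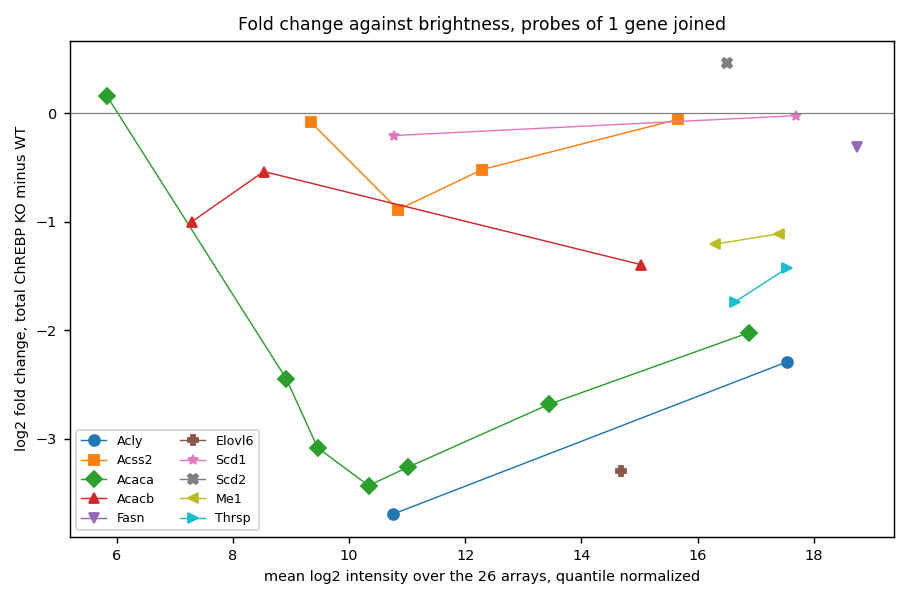
Log2 fold change in total ChREBP KO against the mean normalized log2 intensity over the 26 arrays, 1 symbol per probe, with the probes of a gene joined. In Acly, Acaca, Thrsp and Me1 the brightest probe shows a smaller loss than the next one to its left, in Acacb a larger one, and Fasn, the brightest of the 25, lies at -0.31.

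Ratios taken on each array set the steps against each other. A factor common to all probes of an array cancels in them, whereas the reshaping of values by quantile normalization does not. In total ChREBP KO, Acly over Acss2 changed by -2.23, Elovl6 over Scd1 by -3.28, Fasn over Acaca by 1.71 and Acaca over Acacb by -0.63, each at the smallest p of the exact permutation test (adjusted p = 0.00152 over 26 ratios). Scd1 over Scd2 changed by -0.48 (adjusted p = 0.00379) and Thrsp over its relative Mid1ip1 by -0.53 (adjusted p = 0.00152). In ChREBPβ KO, Elovl6 over Scd1 changed by -0.52 (exact permutation, adjusted p = 0.0177), and Acaca over Acacb by 0.43 (0.0234), the opposite sign to total ChREBP KO. Fasn over Acaca changed by 0.28 (0.0263). With 75th percentile scaling these 3 were -0.42, 0.33 and 0.29 and did not pass. Without ChREBPβ KO replicate 6, the array that was lowest in 8 genes, they were -0.35, 0.36 and 0.19 and did not pass either. Fasn over Acaca also lost the call without ChREBPβ KO replicate 2 (0.26) and without β-line WT replicates 1 (0.28), 2 (0.29) or 4 (0.26). Acly over Acss2 and Scd1 over Scd2 changed by -0.04 and -0.02 there.

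Around the 10 genes, the rest of the pathway was less uniform. In total ChREBP KO, 21 of 61 tested genes of neighbouring steps were lower and 19 higher, against 20.1% and 25.8% of all genes, with a median of -0.03. The supply of citrate moved most in one direction: 7 of 10 genes fell and 1 rose, with Slc25a1, the mitochondrial citrate carrier, at -1.37 (14.56 ± 0.18 against 15.93 ± 0.26) and Pdha1, a subunit of pyruvate dehydrogenase, at -1.35. Of 8 other genes of NADPH supply 4 fell and 2 rose, beside the same 20.1% and 25.8%. Transketolase (Tkt) was at -1.86, Me3 at -0.88 and Me2 at 0.00, so of the malic enzymes Me1 and Me3 were called lower and Me2 was not.

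The paralogs of the members went several ways. Elovl3, which makes very long chains in brown and beige fat, fell by 3.90 (adjusted p = 8.81e-06) from 11.54 ± 1.70 to 7.64 ± 0.81, beside the beige adipocyte genes named above. Their part in its loss was not tested. Elovl5 fell by 0.62 and Elovl4 rose by 1.59. Scd3 fell by 0.53 (adjusted p = 0.0311), and Scd4 was at -0.20 (adjusted p = 0.272). Acss1, the mitochondrial acetate enzyme, fell by 0.56 and Acss3 rose by 0.33. Mid1ip1 fell by 0.89. Of 15 regulators 4 were lower and 5 higher, shares near the 20.1% and 25.8% of all genes. Besides Mlxipl itself, Insig1, which holds back SREBP processing, rose by 1.13, whereas Srebf1, named after its value was seen, was at -0.14 (adjusted p = 0.313). Of the enzymes that activate fatty acids, Acsl1 rose by 1.40 and Acsl5 fell by 1.18. In ChREBPβ KO 1 of the 61 was called, Mlxipl at -1.52. Slc25a1 was at -0.96 and Tkt at -0.42 there, each with an adjusted p of 0.113.

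**Figure D5:**
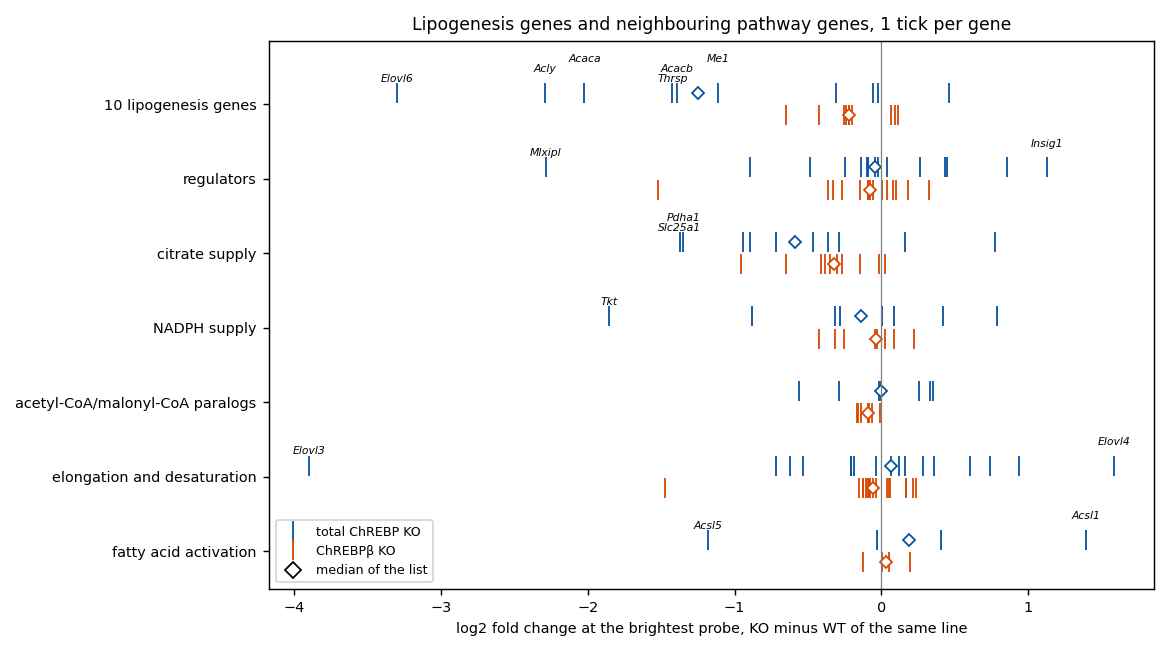
Log2 fold change at the brightest probe, knockout minus WT of the same line, for the 10 lipogenesis genes and 6 lists of neighbouring genes, 1 tick per gene, total ChREBP KO in blue above and ChREBPβ KO in orange below, with diamonds at the list medians. The median of the 10 genes is -1.25 in total ChREBP KO, the lowest of the 7 lists, with citrate supply next at -0.59; the orange medians lie between -0.32 and 0.03.

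Within groups most of the 10 genes also varied together, Scd1 the least. With the group means taken out, 43 of the 45 pairs of members correlated above 0 over the 26 arrays, with a median r of 0.63 and a range of -0.06 to 0.92. The pairs below 0 were Scd1 with Acly (-0.05) and with Acaca (-0.06), and the highest r of Scd1 was 0.46, with Elovl6. The pairs share arrays, tissue pieces and normalization, and pairs of other genes were not examined, so this is a description. Acly with Acaca was the closest pair (0.92), followed by Acss2 with Me1 (0.87). Acss2 thus varied with most of the other genes from array to array, while its mean at the brightest probe was not called changed in total ChREBP KO. The tested genes most like the mean of the 10 over all 26 arrays, group differences included, were Ugp2 (r = 0.98), which makes UDP-glucose, the transcript ENSMUST00000182864 (0.98), Plin2 (0.98), a lipid droplet coat protein, Gm16006 (0.98) and the transcript ENSMUST00000118177 (0.97).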

How the data were processed

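RNA of each sample was labelled with Cy3 and hybridised to a single-colour Agilent mouse array. The authors deposited scanner files, whose median spot intensity was read with Agilent Feature Extraction 10.10.1.1, and a table of log2 values that the authors had normalized, with limma named in the processing notes. By the study's methods that table was quantile normalized, and replicate spots were combined by their median. Its column medians were 7.76 to 7.77, and it differed from the values computed here by a median of 0.000782 over 38499 probes in both, so it is on the same scale and not centred.

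From the scanner files, spots well above background on at least 21 of 26 arrays, or in 75% of a group, were kept, and spots marked as outliers were removed (97 values). Median intensities were put on the log2 scale, replicate spots combined by their median and arrays quantile normalized. limma 3.58.1 (R 4.3.3) fitted 1 mean per group over all 26 arrays (22 residual degrees of freedom), with p-values adjusted by Benjamini-Hochberg over all 38832 probes. A fold change of a high rank is compressed by quantile normalization, so scaling to the 75th percentile of each array is given where it matters. Ratios of probes were tested by exact permutation, two-sided. The study counts mice per group, but the labels only number the replicates, so p-values measure the spread between these samples. For Fasn, whose normalized values were tied, they do so only in part.

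All 10 genes and all their probes are named. Of 61 neighbouring genes, those called with an absolute log2 fold change of at least 1, the paralogs and Mlxipl are named, and Srebf1 after its value was seen. The members, gene lists and marker lists were chosen with earlier results of these data known. The limma fit was tested on simulated data with known answers. Alternatives were another signal column, background correction, scaling, filter, outlier spots kept, the median over a gene's probes, the deposited table, a fit of 2 groups alone, wash batch, slide or replicate number as a block, array weights, covariates for other cell types and leaving out each array. Added after seeing the data were quantile normalization before combining spots, and fits without the arrays rich in muscle or poor in lymphocyte genes.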

Additional observations from a re-analysis of the deposited data

Results flagged for a closer look

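Arrays stood apart from their group in 5 of 40 sets of a gene in a group. The sets share arrays and are not independent, so no chance rate is set beside this count. ChREBPβ KO replicate 6 was far below the other 4 arrays in Acss2 (14.80, the nearest at 15.40) and in Thrsp (17.60, the nearest at 17.81). Total-line WT replicate 1 was far below the others in Scd1 (17.39, the nearest at 17.80). For Fasn, total-line WT replicate 6 and ChREBPβ KO replicate 5 (both 18.84) differed from the nearest array only beyond the 2 decimals printed, since quantile normalization gave 17 of 26 arrays the same value to within 0.01.

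The effect of ChREBPβ KO differed from that of total ChREBP KO, by the limma test of the difference, in Acly (2.05), Acaca (1.80), Acacb (0.75), Fasn (0.37), Elovl6 (2.87), Me1 (0.86) and Thrsp (1.20), all on the log2 scale. All had the lower estimate in total ChREBP KO, and Fasn had no estimated loss in ChREBPβ KO.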

How the results depend on the processing

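In total ChREBP KO, 7 to 9 of the 10 genes were called over 19 alternatives, and 8 in each fit without 1 array. In ChREBPβ KO, 0 of 10 were called in every one of these fits. The number of genes whose knockout effects differed was 7, and ranged from 4 with slide as a fixed block to 8 relative to the adipocyte mean, where Scd1 was added (6 to 7 without 1 array). Between the wild types 4 genes were called (4 in every fit without 1 array), but 1 with slide as a fixed block, 2 with the lymphocyte mean, with both lymphocyte and muscle means as covariates, or with quantile normalization before combining spots, 7 with the median over probes, and 10 relative to the adipocyte mean. The cause was not tested.

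With 75th percentile scaling, the ratio changes in ChREBPβ KO were 0.33 (Acaca over Acacb), -0.42 (Elovl6 over Scd1) and 0.29 (Fasn over Acaca), no longer called, and -0.20 for the Acss2 probes, newly called. The Acaca probes turned to -0.018, and the Me1 probes in total ChREBP KO were called at 0.17. Without 1 array the ChREBPβ KO ratios ranged over 0.36 to 0.49 (Acaca over Acacb), -0.61 to -0.35 (Elovl6 over Scd1), 0.19 to 0.32 (Fasn over Acaca), -0.12 to 0.12 (Scd1 over Scd2), -0.12 to 0.036 (Acly over Acss2), -0.17 to -0.12 (Acss2 probes) and -0.22 to 0.061 (Scd1 probes).

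In ChREBPβ KO, Fasn and Scd1 were -0.055 and -0.0388 with 75th percentile scaling of the median signal, -0.047 and -0.0386 with that of the processed signal, -0.034 and -0.018 with slide as a fixed block, and -0.032 and -0.00155 relative to the adipocyte mean; Acss2 was 0.14 without the muscle-rich arrays. In total ChREBP KO, Acss2 was 0.30 and Scd1 0.062 with slide as a fixed block, and Scd2, which had been called higher, was -0.18 relative to the adipocyte mean. For the difference between knockouts, Acss2 was 0.12 and 0.14 with the covariates, 0.40 relative to the adipocyte mean, 0.39 with the median over probes and 0.34 without the muscle-rich arrays; Scd2 was 0.19 relative to the adipocyte mean and 0.00231 without the muscle-rich arrays, and Scd1 -0.080 with slide as a fixed block. Between the wild types, Thrsp was -0.12 and -0.11 with the 75th percentile scalings, -0.10 and -0.094 with the covariates and -0.41 relative to the adipocyte mean. There Scd2 was 0.00196 with slide as a random block, 0.18 as a fixed block, 0.023 with array weights and 0.052 with quantile normalization first. Acaca was 0.079 with slide as a fixed block, 0.020 with array weights, 0.11 with quantile normalization first and 0.015 without the muscle-rich arrays, and Fasn was 0.020 with slide as a fixed block. Without 1 array, Acss2 (-0.11 to 0.019) and Scd1 (-0.089 to 0.013) in total ChREBP KO and Acaca (-0.065 to 0.041) and Scd2 (-0.075 to 0.060) between the wild types crossed 0.

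Replicate numbers did not pair the samples: deviations of same-numbered arrays correlated between -0.36 and 0.51 in the total line and between -0.35 and 0.14 in the ChREBPβ line. With the replicate block 8 genes were called in total ChREBP KO and 0 in ChREBPβ KO, 6 differed between the knockouts and 4 between the wild types. The share of all genes called with this block was not determined. The difference for Acacb was 0.70 (adjusted p = 0.0884) and no longer called. The number of arrays sets the precision, and Fasn, at the top of the scale, has little room in normalized values.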
